A study of Canis lupus familiaris with 6 samples.

Results

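NFE2L2, KEAP1 and 7 genes that NRF2 is known to switch on (HMOX1, NQO1, GCLC, GCLM, SRXN1, TXNRD1 and OSGIN1) were examined in canine keratinocytes exposed to cold plasma. The 9 genes were taken by symbol from the gene-level table, which holds 35993 genes. Each symbol occurred once, and all 9 passed the filter on low counts that kept 14708 genes for testing. The choice of genes used no measured value of its own, although results of these data were known when it was made.

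Cold atmospheric microwave plasma (CAMP) is ionised argon that carries reactive oxygen and nitrogen species. CPEK cells, a commercial line of canine progenitor epidermal keratinocytes labelled as wild type, were exposed directly to CAMP for 30 s (dCAMP, 3 libraries) or to the gas alone for 30 s (gas control, 3 libraries). All cultures were grown in DMEM with fetal bovine serum, the medium was replaced 15 min after exposure, and RNA was collected 24 h later. The data therefore describe 1 line at 1 time point, and an early response that had ended by then would not be seen. Nothing in the labels states that the libraries of a group came from separate cultures, so the p-values measure the spread between these libraries, which may be technical.

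NFE2L2 encodes NRF2, a transcription factor that is made continuously and destroyed continuously. KEAP1 is the adaptor that hands NRF2 to a CUL3 ubiquitin ligase. When reactive species modify cysteines of KEAP1, the hand-over fails, NRF2 accumulates in the nucleus and, paired with a small MAF protein, it binds antioxidant response elements of its target genes. Since this control acts on the protein, the mRNA of NFE2L2 can stay level while its targets move. In keratinocytes the pathway is known for protection against oxidants and electrophiles.

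The libraries held 43084921 to 54082634 counts. Expression is given as CPM, counts scaled to TMM-normalized library size, and levels of different genes are compared only as FPKM, which is also scaled to transcript length. The gas libraries did not resemble each other as closely as the dCAMP libraries did, and gas 1 stood apart. On the first principal component of log2 CPM, gas 1, 2 and 3 lay at -94.1, -23.0 and 21.7, and the dCAMP libraries lay between 28.6 and 33.6. The mitochondrial genome supplied 0.509%, 1.42% and 2.35% of the counts in gas 1, 2 and 3, against about 2.2% after dCAMP. Gene length was taken as the length implied by counts and FPKM, which differs from the annotated transcript length (for KEAP1, 5534 against 4876 bases). Relative to the dCAMP mean, tested genes with a gene length of 4591 bases or more had a median log2 level of -0.302 in gas 1. It was -0.189 in gas 2 and -0.032 in gas 3. For genes of at most 1714 bases the medians were 0.177, 0.108 and 0.024 in gas 1, 2 and 3. The part of these differences in the results below was not tested, and each of the 9 genes is therefore given with and without gas 1. Fits without gas 1 still hold the length trend of gas 2. Keratinocyte markers were abundant, with 8 of 8 detected and a summed level of 18675 to 25548 FPKM. Of those 8, KRT5, KRT14 and SFN had lower and PERP higher CPM in dCAMP-treated cells at an unadjusted p under 0.05. Across all genes tested, 13.9% were lower and 6.81% higher at that p. TP63 and CDH1 had positive and ITGB4 and LAMB3 negative log2 fold changes, with a larger p. The summed level was 20081 to 25548 FPKM in the gas control against 18675 to 19855 in dCAMP-treated cells. Most of it was KRT5 and KRT14, which averaged 10287 and 9960 FPKM in the gas control and 8892 and 8057 FPKM in dCAMP-treated cells. Markers of fibroblasts, melanocytes and endothelial cells each summed to at most 1.44 FPKM in any library. DCN, LUM, PDGFRB, TYR, DCT and PECAM1 were at 0. CDH5, KDR and MLANA had higher and COL1A1 lower CPM in dCAMP-treated cells at an unadjusted p under 0.05. MLANA had only 4, 0 and 0 counts under gas and 13, 16 and 11 after dCAMP. Within the same lists, PMEL had a negative log2 fold change (-0.62) and COL1A2 and COL3A1 positive ones (0.54 and 0.16), all with a larger p. The endothelial sum was 0.861 to 1.08 FPKM in the gas control and 1.22 to 1.44 FPKM in dCAMP-treated cells, without overlap. The leukocyte markers PTPRC, CSF1R and CD3E had 0 counts in all 6 libraries, which allows up to 3 counts per library.

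The question of this comparison was whether the NRF2 genes stood at another level 24 h after dCAMP treatment than after gas. NQO1, GCLM and TXNRD1 had higher CPM in every dCAMP library than in any gas library, and KEAP1 had lower CPM in every dCAMP library. The groups overlapped for NFE2L2, GCLC, SRXN1, HMOX1 and OSGIN1. Across all genes tested, 19% had dCAMP libraries entirely above the gas libraries and 20.9% entirely below, or 39.9% in either direction, beside 3, 1 and 4 of the 9. Of the 9 genes, 3 had an unadjusted p under 0.05 in edgeR's quasi-likelihood test (NQO1 and TXNRD1 higher, KEAP1 lower), against 20.7% of all genes tested. By direction, 6.81% of all genes tested were higher and 13.9% lower at that p. With Benjamini-Hochberg adjustment over all genes, 0 of the 9 had an adjusted p under 0.05, and neither did any other gene (0% of 14708). DESeq2 called 0 of the 9 and 161 genes in all (1.05%), and limma's voom with sample quality weights called 7, all but GCLC and SRXN1, among 60.8% of all genes. None of the 9 combined a 2-fold difference with an unadjusted p under 0.05 in the main edgeR fit, as 1.09% of all genes did. GCLM, just short of 2-fold there, met both limits in some alternative edgeR fits. Its log2 fold change was 1.203 with the replicate number as a block (unadjusted p = 0.0259). It was 1.006 with that block and a correction for gene length (0.0146), and 1.58 without gas 3 (0.0016). In bulk RNA, a change in the share of cells that express a gene and a change in RNA per cell cannot be told apart.

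**Figure D1:**
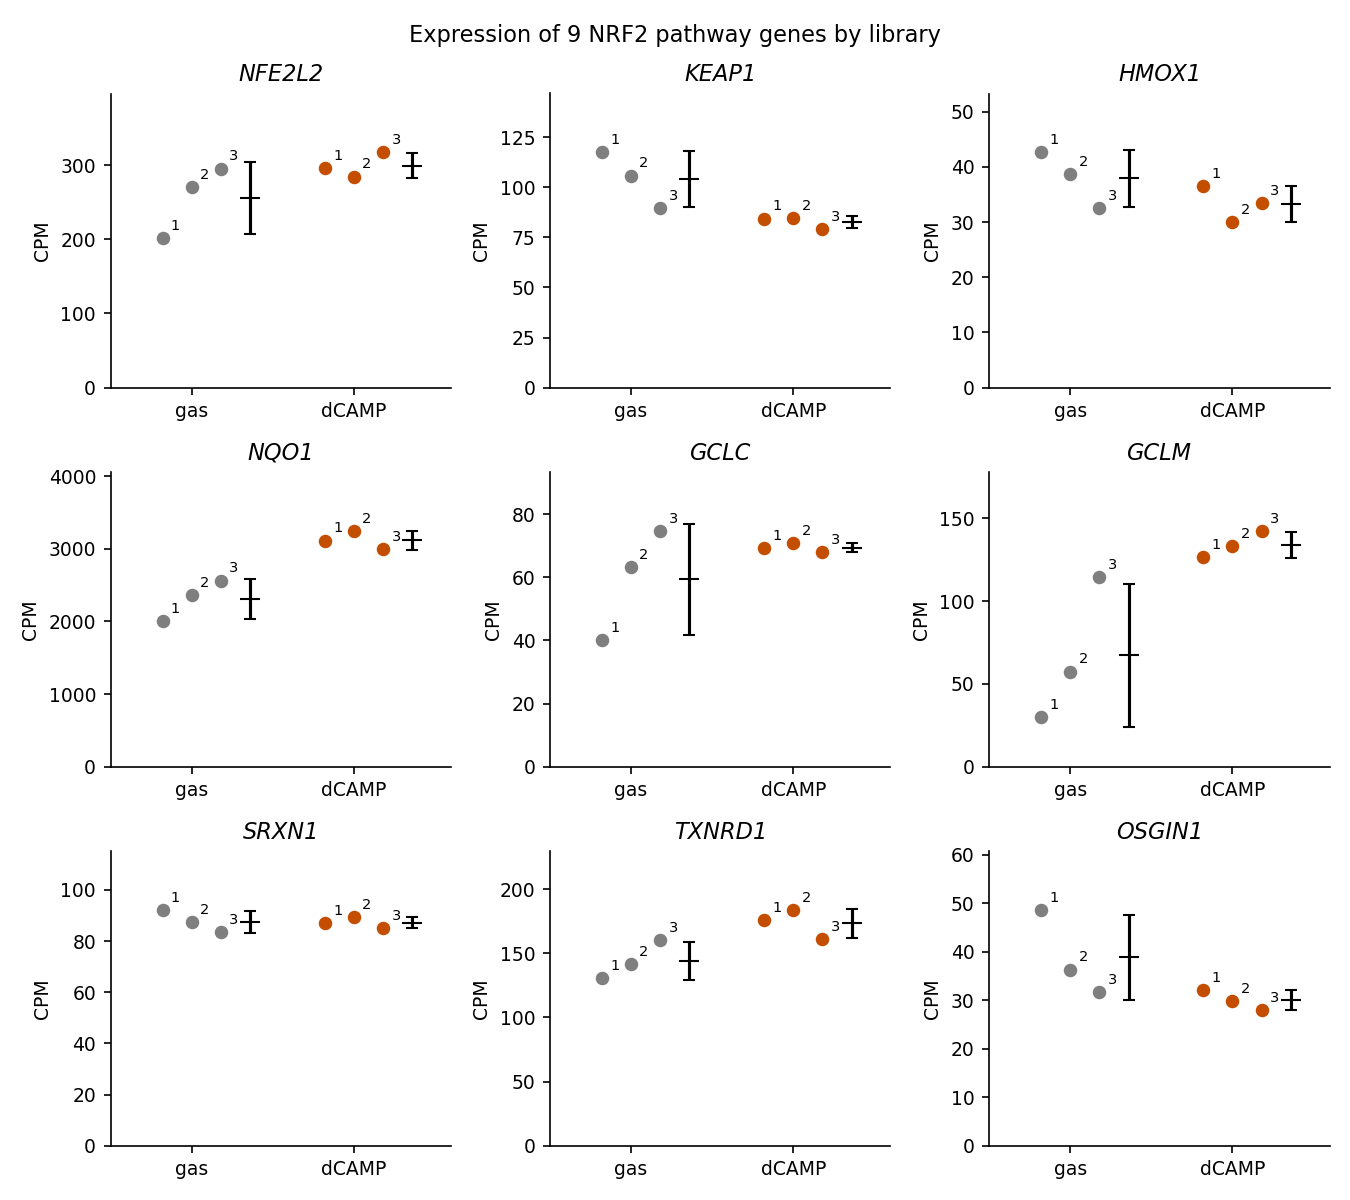
CPM of each gene by library, with a panel per gene and the CPM axis starting at 0. Grey points are the gas libraries and orange points the dCAMP libraries, numbered by replicate, and the black bar beside each group is its mean ± SD (n = 3). The dCAMP points lie above all gas points for NQO1, GCLM and TXNRD1 and below them for KEAP1, and the gas points are more widely spread for all 9 genes.

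The spread within the gas control was the larger one for 9 of 9 genes on the log2 CPM scale, as it was for 81.6% of all genes tested. Counting error was small beside it. The smallest count of any of the 9 genes in a library was 1265, for OSGIN1, which gives a relative counting error of 2.81%, while the coefficient of variation of the 3 gas libraries was 4.90% for SRXN1 and 10.4% to 64.4% for the other 8 genes. The dCAMP libraries varied by 2.13% to 9.79%.

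Among the regulators, NFE2L2 (gene ID 478813, on chromosome 36 of the CanFam3.1 build, 20989205 to 21087044) had 201.3, 270.3 and 295.0 CPM in gas 1, 2 and 3 and 295.5, 284.6 and 317.1 CPM in dCAMP 1, 2 and 3. Gas 1 was the low library, and gas 3 lay within the dCAMP range. The gas control averaged 255.5 ± 48.5 CPM and dCAMP-treated cells 299.1 ± 16.6 CPM (± SD, n = 3 per group). Its log2 fold change (log2FC, dCAMP over gas) was 0.23 (SE 0.15, adjusted p = 0.346), with a 95% interval of -0.13 to 0.59. Without gas 1 it was 0.06. The locus overlaps those of LOC100683862 and LOC111094271, and how reads on overlapping genes were counted is not given in the sources used here.

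KEAP1 (gene ID 476713, chromosome 20, 50651070 to 50661178) showed the opposite order of the gas libraries. It had 117.4, 105.7 and 89.5 CPM under gas and 84.3, 84.7 and 79.2 CPM after dCAMP. All dCAMP values lay below the lowest gas value, which was that of gas 3. The means were 104.2 ± 14.0 and 82.7 ± 3.06 CPM (± SD, n = 3 per group), a log2FC of -0.33 (SE 0.12, unadjusted p = 0.0288, adjusted p = 0.225). The 95% interval was -0.62 to -0.05. The log2FC was -0.26 without gas 1, -0.48 without gas 3 and -0.55 after each library's trend on transcript length was removed. Its adjusted p was 0.0222 without gas 3, in a range of 0.000465 to 0.502 over 15 alternatives, and its unadjusted p was under 0.05 in 11 of them. Depending on the alternative, 6.86% to 64.9% of all genes had such a p. How many of all genes had it in as many alternatives was not counted, here and for the genes below.

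As a description of both regulators together, the FPKM of NFE2L2 was divided by that of KEAP1 in each library, a ratio chosen after the values were seen. It was 3.37, 4.99 and 6.54 in gas 1, 2 and 3 and 6.91, 6.60 and 7.96 after dCAMP. The lowest dCAMP ratio exceeded the highest gas ratio by a margin smaller than the spread of either group, whose ratios were 4.97 ± 1.59 and 7.16 ± 0.713 (± SD, n = 3 per group).

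GCLC and GCLM encode the catalytic and the modifier subunit of glutamate-cysteine ligase, the rate-limiting enzyme of glutathione synthesis. GCLM (gene ID 612283, chromosome 6, 55204602 to 55244217) had the widest range of the 9 genes on the log2 scale. It had 1376, 3015 and 6077 counts in gas 1, 2 and 3, or 29.7, 57.3 and 114.6 CPM, and 5862, 5699 and 6420 counts after dCAMP, or 126.5, 132.9 and 142.1 CPM. The groups did not overlap, but gas 3 lay closer to the dCAMP libraries than to gas 2. The means were 67.2 ± 43.3 CPM in the gas control and 133.8 ± 7.83 CPM in dCAMP-treated cells (± SD, n = 3 per group), a log2FC of 0.99 (SE 0.45, unadjusted p = 0.0669, adjusted p = 0.256). The 95% interval of -0.09 to 2.08 covers values from no difference to more than a 4-fold one. Without gas 1 the log2FC was 0.63, without gas 2 it was 0.88, and without gas 3 it was 1.58. After removal of the length trend it was 0.86. Its adjusted p was 0.0218 without gas 3, in a range of 0.000205 to 0.502 over the 15 alternatives, and its unadjusted p was under 0.05 in 7 of them, the replicate block among them (0.0259).

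GCLC (gene ID 609822, chromosome 12, 20999815 to 21047779) had 40.1, 63.3 and 74.6 CPM under gas and 69.3, 70.9 and 68.0 CPM after dCAMP. Here gas 3 was the highest of all 6 libraries and gas 1 the lowest, so that the dCAMP values lay inside the gas range. The log2FC was 0.23 (SE 0.22, adjusted p = 0.496), with a 95% interval of -0.31 to 0.76, and it was -0.0080 without gas 1 and 0.14 after removal of the length trend. The FPKM ratio of GCLM to GCLC, also chosen after the values were seen, was 0.483, 0.589 and 1.0 in gas 1, 2 and 3 and 1.19, 1.22 and 1.36 after dCAMP. Both subunits were therefore low in gas 1, and GCLM by far the more so.

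NQO1, TXNRD1 and SRXN1 encode redox enzymes of the cytosol. NQO1 (gene ID 610935, chromosome 5, 79979593 to 79990875) reduces quinones by transferring 2 electrons at once and is a standard readout of NRF2 activity. It had 2007, 2362 and 2561 CPM under gas and 3114, 3241 and 2991 CPM after dCAMP. The groups were separated by a gap of more than the range of the dCAMP libraries, between 2561 CPM in gas 3 and 2991 CPM in dCAMP 3. Mean expression was 2310 ± 280.4 CPM in the gas control and 3115 ± 125.1 CPM in dCAMP-treated cells (± SD, n = 3 per group). The log2FC was 0.43 (SE 0.10, unadjusted p = 0.00509, adjusted p = 0.221), a 34.9% difference by the fitted fold, with a 95% interval of 0.18 to 0.68. NQO1 was the 1 gene of the 9 whose unadjusted p stayed under 0.05 in all 15 alternatives, where its log2FC was 0.32 to 0.47. The lower end came without gas 1, and its adjusted p over those alternatives ranged from 0.000217 to 0.502. How many of all genes kept such a p in all 15 was not counted. Depending on the alternative, 6.86% to 64.9% of all genes had it, and all alternatives reuse the same 6 libraries.

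TXNRD1 (gene ID 474536, chromosome 10, 33904065 to 34021549) encodes the cytosolic selenoenzyme that returns thioredoxin to its reduced form. It had 130.5, 141.6 and 160.1 CPM under gas and 175.6, 183.5 and 161.0 CPM after dCAMP. The groups did not overlap, yet gas 3 and dCAMP 3 differed by less than the standard deviation of either group, which was 14.9 CPM in the gas control and 11.4 CPM in dCAMP-treated cells. The log2FC was 0.27 (SE 0.11, unadjusted p = 0.0435, adjusted p = 0.238), with a 95% interval of 0.01 to 0.52. The unadjusted p was under 0.05 in only 4 of the 15 alternatives. It was 0.0761 with DESeq2, 0.11 with upper-quartile scaling (log2FC 0.19), 0.0903 with the replicate block, 0.212 after removal of the length trend (log2FC 0.13) and 0.0818 without gas 1 (log2FC 0.18). The locus overlaps EID3, LOC102152194 and LOC111097681.

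SRXN1 (gene ID 100686728, chromosome 24, 20232608 to 20238838), sulfiredoxin, repairs peroxiredoxins whose active cysteine has been overoxidized. It was the least variable of the 9 genes, with 92.0, 87.3 and 83.4 CPM under gas and 87.1, 89.3 and 84.9 CPM after dCAMP. All dCAMP values lay inside the gas range. The log2FC was -0.01 (SE 0.08, adjusted p = 0.952), and its 95% interval of -0.21 to 0.19 leaves out changes of the size fitted for NQO1. The sign was positive (0.01) without gas 1.

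HMOX1 (gene ID 442987, chromosome 10, 28744404 to 28751544), heme oxygenase 1, opens the heme ring and releases iron and biliverdin, and its transcription is held down by BACH1 as well as raised by NRF2. It had 42.6, 38.7 and 32.5 CPM under gas and 36.5, 30.0 and 33.5 CPM after dCAMP. Gas 1 was the highest library and dCAMP 2 the lowest, and gas 3 lay among the dCAMP values. The means were 37.9 ± 5.12 and 33.3 ± 3.26 CPM (± SD, n = 3 per group), a log2FC of -0.19 (SE 0.14, adjusted p = 0.389) with a 95% interval of -0.52 to 0.15. Without gas 1 it was -0.11 and without gas 3 it was -0.33. Its annotated transcript is only 867 bases long, the shortest of the 9 genes.

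OSGIN1 (gene ID 489687, chromosome 5, 68344406 to 68377842) encodes a growth inhibitor induced by oxidative stress. It had 48.5, 36.3 and 31.6 CPM under gas and 32.1, 29.8 and 28.0 CPM after dCAMP. Gas 1 stood above the other 5 libraries, and gas 3 lay just below dCAMP 1. The log2FC was -0.37 (SE 0.17, adjusted p = 0.260), with a 95% interval of -0.80 to 0.05, and it was -0.20 without gas 1 and -0.55 without gas 3. Its adjusted p was 0.0445 without gas 3, in a range of 0.00797 to 0.502 over the alternatives.

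**Figure D2:**
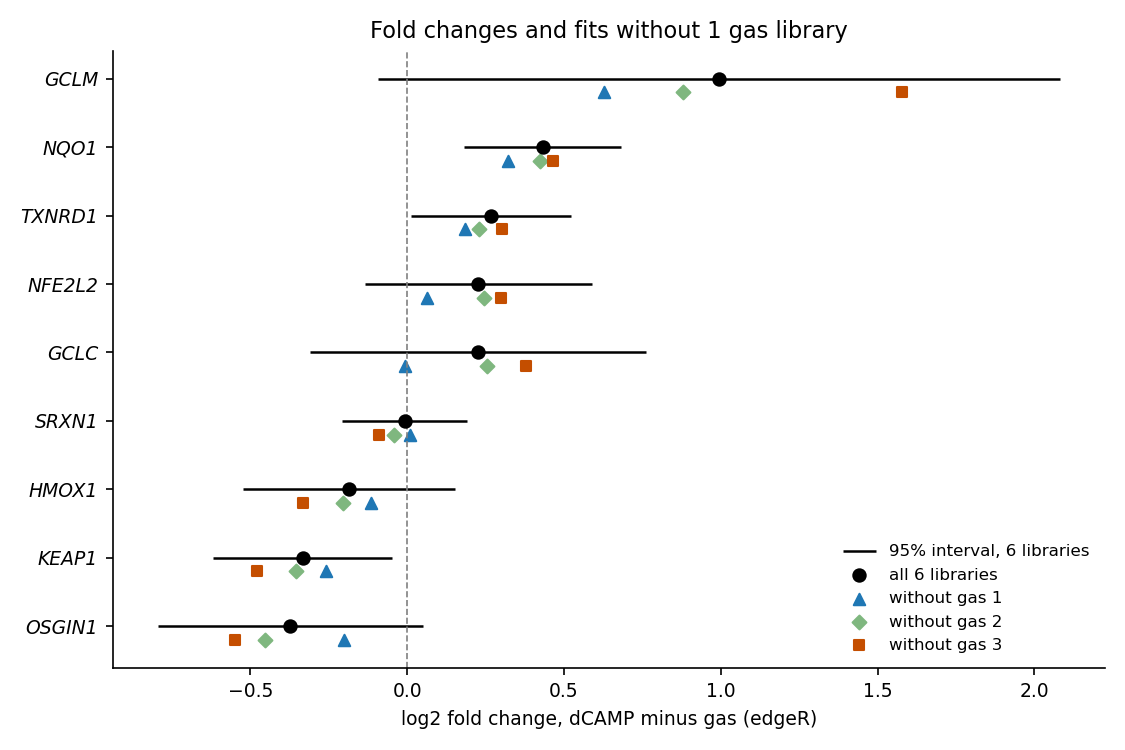
Log2FC of dCAMP against gas on the horizontal axis for each of the 9 genes. Black points and lines are the edgeR estimate from all 6 libraries with its 95% interval, and coloured symbols are the estimates without gas 1, gas 2 or gas 3. GCLM moves most, from 0.63 without gas 1 to 1.58 without gas 3, and the intervals of NQO1, TXNRD1 and KEAP1 alone stay on 1 side of 0.

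The fitted sign differed among the NRF2 targets, but opposed directions were not shown. Of the 7 targets, 4 had a positive log2FC (GCLM, NQO1, TXNRD1 and GCLC) and 3 a negative one (SRXN1, HMOX1 and OSGIN1). With all libraries, NQO1 and TXNRD1 had an unadjusted p under 0.05 in the edgeR test, and none of the 3 negative targets had one. SRXN1 was at only -0.008. The median of the 7 was 0.23, and 52.4% of all genes tested had a positive log2FC, with a median of 0.03. The median over the 9 genes was 0.23 too, and it was 0.01 without gas 1 and 0.30 without gas 3. The sign was the same in every alternative for 7 of the 9 genes, and GCLC and SRXN1 changed sign in 1 alternative each, that without gas 1. Without gas 3, 5 of the 9 genes (GCLM, NQO1 and TXNRD1 higher, KEAP1 and OSGIN1 lower) had an adjusted p under 0.05, as did 33.1% of all genes in that fit. Without gas 1 the number was 0, and 3 genes, NQO1, GCLM and KEAP1, had an unadjusted p under 0.05, as did 20.6% of all genes. Without gas 2 or without any 1 of the dCAMP libraries NQO1 was the 1 gene of the 9 with such a p, beside 6.86% to 9.61% of all genes.

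Position within the gas control followed the same library for every gene. Gas 1 was the gas library farthest from the dCAMP mean in 9 of 9 genes, as in 74% of all genes tested. Relative to the dCAMP mean, the log2 level of GCLM was -2.17 in gas 1, -1.22 in gas 2 and -0.22 in gas 3, and GCLM was the 1 gene of the 9 with 2 gas libraries at least 2-fold away, as were 6.08% of all genes tested. For KEAP1 the values were 0.51, 0.35 and 0.11. NQO1 was at -0.63, -0.40 and -0.28.

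**Figure D3:**
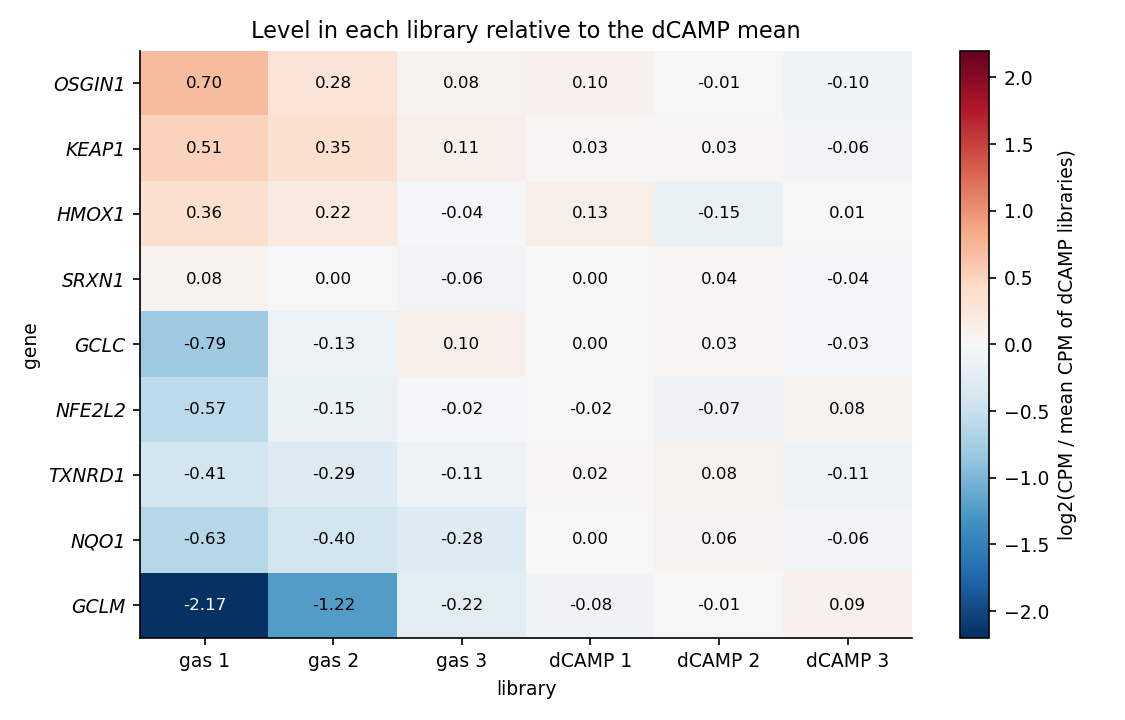
Log2 of the CPM in each library over the mean CPM of the 3 dCAMP libraries, with genes in rows and libraries in columns. Blue is below and red above the dCAMP mean. Gas 1 is the most strongly coloured column, from -2.17 for GCLM to 0.70 for OSGIN1, and gas 3 stays between -0.28 and 0.11.

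Levels per transcript length set NQO1 far above the rest. Its mean over the 6 libraries was 1054 FPKM, higher than 99.5% of the genes tested, and it supplied 0.206% to 0.251% of all counts under gas and 0.302% to 0.322% after dCAMP. NFE2L2 came next with 98.6 FPKM, and neither its range over the libraries (73.1 to 113.8 FPKM) nor that of NQO1 (798.7 to 1266 FPKM) touched that of another of the 9 genes. TXNRD1, HMOX1 and SRXN1 followed with 36.5, 36.2 and 33.0 FPKM, and their ranges overlapped. GCLM, GCLC, KEAP1 and OSGIN1 had 17.7, 17.4, 16.9 and 14.8 FPKM, again with overlapping ranges. Thus GCLM, at 5.38 FPKM in gas 1, was there the lowest of the 9 genes, and at 22.2 to 25.1 FPKM after dCAMP it ranked sixth.

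The transcript table lists 13 transcripts of the 9 genes, and NFE2L2, KEAP1 and OSGIN1 are the genes with more than 1. For NFE2L2, variant X1 (2532 bases) took 51.5%, 67.2% and 32.3% of the gene's counts in gas 1, 2 and 3 and 46.1%, 53.3% and 31.8% after dCAMP. Variant X3 (2401 bases), whose locus reaches farthest, to 21087044, was listed with 1661 counts in gas 3 and 3293 in dCAMP 3 and at 0 in the other 4 libraries. The ranges of both shares thus overlapped between the groups, and each group had 1 library with variant X3. For KEAP1, variant X2 (4852 bases) took 2.08%, 1.98% and 0.948% of the counts under gas and 8.71%, 15.0% and 2.88% after dCAMP, which did not overlap. In counts these were 113, 110 and 45 against 340, 546 and 103, so dCAMP 3 was below gas 1 and gas 2 there. Both KEAP1 variants span nearly the same bases, and how shared reads were divided between them was not tested. For how many of all transcripts the shares did not overlap was not counted, while 39.9% of all genes tested had no overlap in CPM. OSGIN1 variant X2 was listed at 0 in all 6 libraries.

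**Figure D4:**
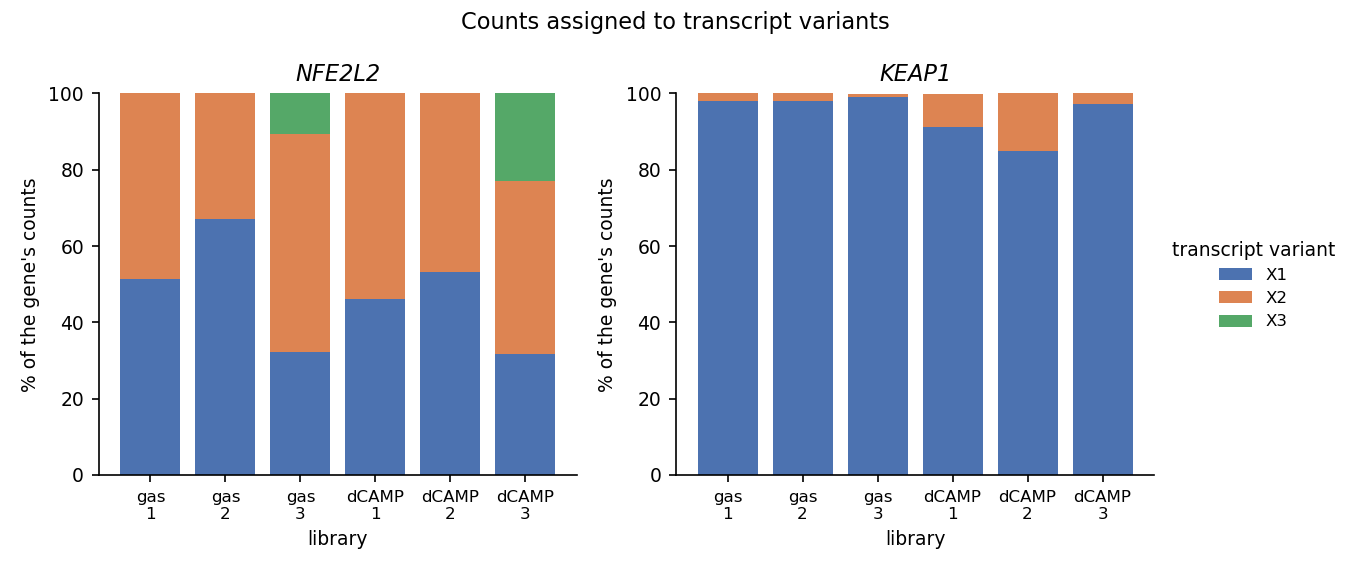
Share of the counts of NFE2L2 and KEAP1 assigned to each annotated transcript variant, in % on the vertical axis, with a bar per library. NFE2L2 variant X3 appears in gas 3 and dCAMP 3 only, and KEAP1 variant X2 is at most 2.08% under gas and 2.88% to 15.0% after dCAMP.

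Beyond the 9 genes, 45 further genes of the pathway were set out in 5 lists by role, and 43 of them were tested. CBR1 was not matched by symbol, and MGST1 had too few counts. At an unadjusted p under 0.05, 3 of the 43 were higher and 4 lower in dCAMP-treated cells, 7 in all (against 20.7% of all genes tested), and 0 had an adjusted p under 0.05. The number of 7 was 28 without gas 3, where 49.2% of all genes had such a p, and 5 without gas 1 (20.6% of all genes). In the other fits that left out 1 library it was 1 to 3, with 6.86% to 9.61% of all genes. The median log2FC of the 43 genes was -0.08.

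Among 12 genes for NRF2 turnover and its binding partners, 0 were higher and 2 lower at an unadjusted p under 0.05, SQSTM1 and MAFG. Of all genes tested, 6.81% were higher and 13.9% lower at that p. SQSTM1, the autophagy receptor p62 that draws KEAP1 away from NRF2 and is itself an NRF2 target, had 309.1, 260.5 and 240.5 CPM under gas and 224.7 to 225.6 CPM after dCAMP, a log2FC of -0.26 (SE 0.11, adjusted p = 0.240). All dCAMP values were below all gas values. MAFG, a small MAF partner of NRF2, had 50.6, 38.5 and 38.3 CPM under gas and 31.8 to 34.3 CPM after dCAMP, a log2FC of -0.36 (SE 0.14, adjusted p = 0.233). For both genes gas 1 was the highest library, as it was for KEAP1 and OSGIN1. The log2FC values without gas 1 were -0.17 for SQSTM1 and -0.24 for MAFG. CUL3, the scaffold of the ligase that KEAP1 serves, is shown although the naming rule does not take it, a choice made on its values. It stood at 34.4, 75.8 and 106.3 CPM under gas and 106.1 to 107.8 CPM after dCAMP. Gas 3 thus lay among the dCAMP values of CUL3 and gas 1 far below them.

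Of the 11 glutathione and thioredoxin genes tested, 1 was higher (GLRX) and 1 lower (PRDX1) at that p, beside 6.81% and 13.9% of all genes. GLRX, a glutaredoxin that removes glutathione from proteins, had 12.8, 15.7 and 14.9 CPM under gas and 17.9 to 19.2 CPM after dCAMP, without overlap (log2FC 0.34, SE 0.12, adjusted p = 0.222). PRDX1, the cytosolic peroxiredoxin that sulfiredoxin repairs, had 2089, 2039 and 1830 CPM against 1632 to 1793 CPM, also without overlap (log2FC -0.22, SE 0.08, adjusted p = 0.226). Without gas 1 these were 0.24 and -0.21. SLC7A11, the cystine importer that feeds glutathione synthesis, was likewise picked on its values. It read 53.5, 63.4 and 159.5 CPM under gas and 117.8, 103.1 and 141.1 CPM after dCAMP, so that gas 3 was the highest of all 6, and its log2FC was 0.39 (SE 0.42, adjusted p = 0.537) with all libraries, 0.10 without gas 1, 0.17 without gas 2 and 1.0 without gas 3.

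The 6 genes listed as NADPH-supplying enzymes lay in both directions. ME1 and IDH1, which make NADPH from malate and isocitrate in the cytosol, were higher at an unadjusted p under 0.05. TKT, transketolase of the pentose phosphate pathway, was lower at that p. Of all genes tested, 6.81% were higher and 13.9% lower. ME1 had 75.2, 96.3 and 121.0 CPM under gas and 137.2 to 147.5 CPM after dCAMP, a log2FC of 0.55 (SE 0.17, adjusted p = 0.221). IDH1 had 76.6, 90.1 and 91.2 CPM against 112.8 to 115.4 CPM, a log2FC of 0.41 (SE 0.10, adjusted p = 0.221). For both genes the lowest dCAMP value was above the highest gas value by more than the dCAMP range. TKT had 1845, 1659 and 1382 CPM against 1299 to 1381 CPM, a log2FC of -0.30 (SE 0.11, adjusted p = 0.236), and its gas 3 and dCAMP 1 values nearly met. PGD and TALDO1, also of the pentose phosphate pathway, had log2FC values of -0.28 and -0.30 that did not pass at that p. Without gas 1 the log2FC values were 0.38 for ME1, 0.31 for IDH1 and -0.22 for TKT.

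An unadjusted p under 0.05, which 20.7% of all genes tested had, was found for none of the 7 heme and iron genes. It was found for none of the 7 carbonyl and xenobiotic metabolism genes tested either. The largest differences were those of FTL, the ferritin light chain, with a log2FC of -0.25 (SE 0.11, adjusted p = 0.257), and of UGDH, UDP-glucose dehydrogenase, with 0.58 (SE 0.27, adjusted p = 0.258). Without gas 1 these were -0.16 and 0.32. UGDH had 47.2, 73.0 and 102.8 CPM under gas and 104.8 to 118.4 CPM after dCAMP, the same order of gas libraries as GCLM. FTH1 occurs under 2 gene identifiers in the table, 1 of which was used, and its value is uncertain for that reason.

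**Figure D5:**
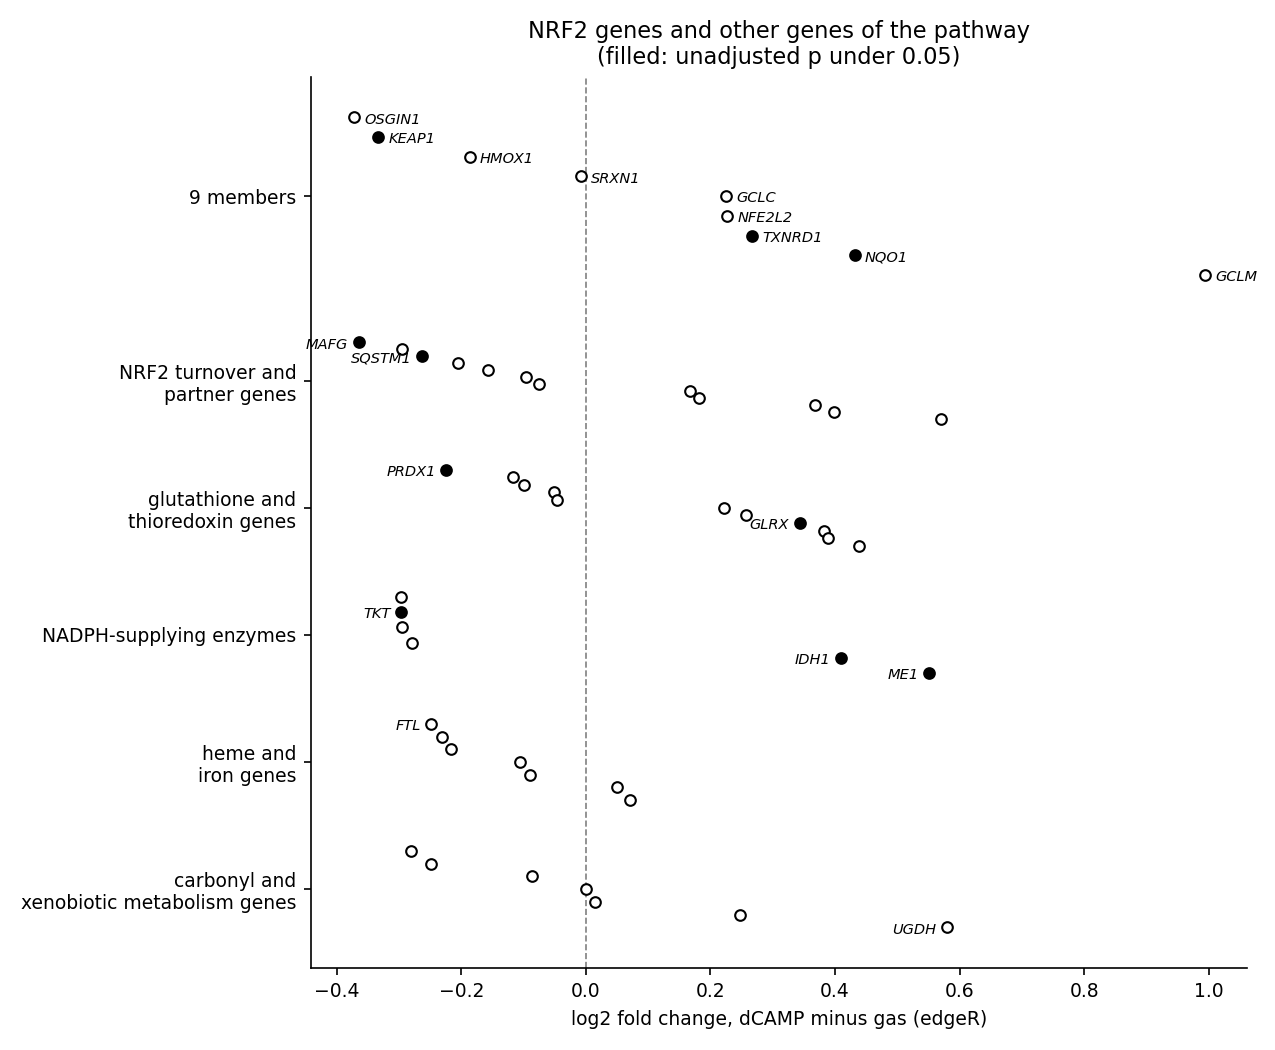
Log2FC of dCAMP against gas for the 9 genes and the 43 other pathway genes tested, a point per gene, grouped by role. Filled points had an unadjusted p under 0.05, which holds for 3 of the 9, 7 of the 43 and 20.7% of all genes tested. No point had an adjusted p under 0.05. ME1 and IDH1 lie to the right and TKT to the left within the NADPH-supplying enzymes.

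Relatives of the 9 genes were looked up after the values were seen. HMOX2, the constitutive heme oxygenase, had 56.5, 52.5 and 43.4 CPM under gas and 39.2 to 41.2 CPM after dCAMP (log2FC -0.35, SE 0.12, adjusted p = 0.224), without overlap between the groups. The groups did not overlap for TXNRD2 and TXNRD3 (lower after dCAMP) and OSGIN2 (higher) either. They overlapped for NQO2, NFE2L3 and HMOX1 itself. Of all genes tested, 39.9% had no overlap between the groups. TXNRD2, the mitochondrial thioredoxin reductase, had a log2FC of -0.24 (SE 0.12), while TXNRD1 had 0.27. OSGIN2 had 8.40, 16.0 and 19.2 CPM against 21.7 to 23.0 CPM (log2FC 0.61, SE 0.29), while OSGIN1 had -0.37. NQO2, TXNRD3 and NFE2L3 had log2FC values of -0.04, -0.08 and 0.38. TXNRD1 thus had the opposite sign to TXNRD2 and TXNRD3, OSGIN1 to OSGIN2 and NQO1 to NQO2. HMOX1 and NFE2L2 had the same sign as HMOX2 and NFE2L3. These differences between genes were not tested. The relatives are given with all 6 libraries only, and OSGIN2 was at a log2 level of -1.40 in gas 1 relative to the dCAMP mean.

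For each of the 9 genes, the gene with the most similar profile was sought among 11987 tested genes with a symbol, by the root mean square distance between log2 CPM values centred on their mean over the 6 libraries. For NQO1 it was TMEM200A, at a distance of 0.030. The nearest genes of GCLM, TXNRD1 and NFE2L2 were OGFRL1 (0.031), CLMP (0.026) and RCN1 (0.023). KEAP1 had the closest match, RACK1, at 0.008, with 2295, 2052 and 1730 CPM under gas and 1550 to 1632 CPM after dCAMP. Those of GCLC, HMOX1, SRXN1 and OSGIN1 were CEP78, FAM117A, SLC35E1 and PIF1, at 0.018 to 0.031. Among the 9 genes themselves, KEAP1 and OSGIN1 (0.092) and NQO1 and TXNRD1 (0.094) had the most similar profiles, and GCLM and OSGIN1 the least (1.08). Each nearest gene had the smallest of 11987 distances over only 6 libraries, and no reference distance was computed. The first principal component held 71.2% of the variance over all genes tested, so a small distance does not mark genes as regulated together.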

How the data were processed

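RNA-Seq of CPEK cells covered 3 gas and 3 dCAMP libraries. The authors checked reads with FastQC 0.11.7, trimmed them with Trimmomatic 0.38, removed PCR duplicates, mapped to CanFam3.1 with HISAT2 2.1.0 and summarized known transcripts with StringTie 2.1.3b. The authors deposited unnormalized read counts of genes and of transcripts, always whole numbers, and their deposited FPKM values are scaled to length and mapped fragments. The TPM columns deposited by the authors were not used. Transcript lengths are given in the deposited table. The annotation release is not given in the sources used here.

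Tests on the counts used edgeR 4.0.16 under R 4.3.3 (TMM, filterByExpr, quasi-likelihood test with a prior count of 2, Benjamini-Hochberg adjustment over 14708 genes), limma 3.58.1 and DESeq2 1.42.0. The edgeR steps were tested on simulated counts with 200 genes changed 3-fold and the same dispersion for all genes. They recovered 98.5% of these genes at a dispersion of 0.01 and 95% at 0.05. The simulated counts held no outlying library and no length trend, so they do not show how the test behaves on these libraries. Depth was 43084921 to 54082634 counts, and counting errors and the limit of 3 counts for a count of 0 cover counting error only. Each SE is the absolute log2FC divided by the square root of F.

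The members, lists and tests were chosen with earlier results of these data known. Named were the 9 members, each list's genes with an unadjusted p under 0.05 (or, with none, the largest change), and the nearest profile of each member. TXN was matched through its gene ID in the reference gene table (UU_Cfam_GSD_1.0), where all 9 members' IDs were found. A search of promoter and protein sequences was planned and is not reported here. The values of 1 listed gene are not reported here.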

Additional observations from a re-analysis of the deposited data

How the results depend on the processing

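Each value was recomputed under 15 alternatives: scaling by RLE or by the upper quartile, testing every gene with a count or only those with 10 or more in each library, DESeq2 on genes with a count in every library, limma's voom with sample quality weights, the replicate number as a block, a correction for the trend on gene length (lowess, span 0.3) with and without the block, and each of the 6 libraries left out. The cause of the changes below was not tested.

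The number of the 9 genes with an unadjusted p under 0.05 was 3 (20.7% of all genes). It was 7 with voom and sample quality weights (64.9% of all genes), and 1 to 6 in the fits without 1 library, with 6 without gas 3 (49.2% of all genes) and 1 without gas 2, dCAMP 1, dCAMP 2 or dCAMP 3. At an adjusted p under 0.05 there were 0 (3 unadjusted). There were 7 with voom, where 60.8% of all genes passed, 0 with DESeq2 (1.05% of all genes), and 0 to 5 in the fits without 1 library. For the 43 other pathway genes the number at an unadjusted p under 0.05 was 7 (20.7% of all genes). It was 4 with DESeq2 (21.7% of all genes), 32 with voom (64.9%), 3 with the length correction (21.1%) and 1 to 28 in the fits without 1 library (28 without gas 3, 49.2%). The median log2 fold change of the 9 genes was 0.23, and 0.010 to 0.30 in the fits without 1 library, with 0.010 without gas 1. Without gas 1, GCLC had a log2 fold change of -0.0080 and SRXN1 of 0.010 (0.38 and -0.088 without gas 3), the reverse of their signs with all libraries. No other sign changed in these alternatives.

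Same-numbered gas and dCAMP libraries had correlated deviations of only 0.13, 0.02 and 0.05. The same number was the best match of gas 1 and of gas 2, while gas 3 correlated best with dCAMP 2 (0.09). Such small values do not settle whether the libraries were paired, and the main test used the group only. With the replicate block, 3 of the 9 genes had an unadjusted p under 0.05, with GCLM in place of TXNRD1, and 0 an adjusted one, the median was 0.24, and 7 of the 43 other genes had an unadjusted p under 0.05. With the length correction and the replicate block together these numbers were 3, 0, 0.13 and 5. Of all genes, 18.9% had an unadjusted p under 0.05 with the block alone and 20.7% with both. Leaving out a library leaves a group of 2.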
